A study of Mus musculus with 104 samples.

Results

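The comparison described here asked what DMHCA, a synthetic sterol-like ligand of the liver X receptors (LXRs), changed in bone marrow-derived macrophages (BMDMs) that were also given the Notch ligand DLL4 and the cytokine TGF-beta. Its members were chosen by label alone and are 4 RNA-seq libraries of 104 in the series, from a table of 18 libraries in 9 groups. The groups are C57BL/6J BMDMs with DLL4, TGF-beta and DMHCA for 72 h (2 libraries, called here cultures with DMHCA), and C57BL/6J BMDMs with DLL4 and TGF-beta for 72 h (2 libraries, cultures without DMHCA). DLL4 and TGF-beta are therefore shared by all 4 libraries, and no 72 h culture with DMHCA alone was analysed here. Of 24940 genes listed, 10908 passed the filter of at least 4 TPM in at least 2 of the 18 libraries and were tested.

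The time was taken from the titles. The treatment labels of the same 4 libraries say 24 h for each agent, and the labels give 6 days of culture for them, against 4 days for the libraries titled 24 h, so that exposure time and age of the culture cannot be told apart. Nothing in the labels tells if both libraries of a group had their own culture or mouse. The p-values measure only the spread between the libraries of a group, pooled over the 9 groups of the table. No dose is stated for any agent. The reads recovered from the deposited values came to 11103894 and 11490679 with DMHCA, and 11137942 and 11399006 without. The cultures carried the defining macrophage genes, with Cd68, a lysosomal membrane protein, at 1418 and 1549 TPM with DMHCA and 1611 and 1573 TPM without, and Csf1r, the receptor for the growth factor that supports macrophages, at 645 and 666 TPM with DMHCA and 521 and 517 TPM without. Clec4f and Timd4, defining genes of mature Kupffer cells, did not pass the filter. The 2 libraries with DMHCA stood apart from each other, with 239 tested genes at least 2-fold apart between them, against 183 between the libraries without DMHCA and 95 to 122 in the 7 other groups.

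LXRs are nuclear receptors that bind oxidised and intermediate sterols and switch on genes that carry cholesterol out of the cell, place it on lipoproteins and build fatty acids. When sterols are plentiful, a second system, the membrane-bound transcription factor SREBP2, is held back and the enzymes of cholesterol synthesis are made less. In the liver, DLL4 on sinusoidal endothelium and TGF-beta are among the signals that give incoming monocytes the features of Kupffer cells, and LXR-alpha, encoded by Nr1h3, is a receptor that Kupffer cells depend on.

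LXR and its partner RXR bind repeated motifs with a spacer between them. The form known from Abca1 and Srebf1, GGTTACT and then CGGTCA after any 2 bases, was searched on both strands in the 250 bases before each start site listed by RefSeq (GRCm38.p6). It occurred in 3 of 32851 windows, or 0.00913%, and those belonged to Abca1, Srebf1 and Fasn, each of which was higher with DMHCA. Since the form was taken from Abca1 and Srebf1, their matches were fixed by the choice of motif and support nothing. The form came from general knowledge of LXR elements, so the match of Fasn is not independent support either. Of the 70 higher genes, 35 could be matched to a window by symbol, and a match of letters is a description and not a binding site. The 3 windows are shown because they hold the element, which is in capitals. They lie on the minus strand, at chr4:53159896-53160145 for Abca1, chr11:60210472-60210721 for Srebf1, which has several listed starts, and chr11:120824548-120824797 for Fasn, and each is written 5′ to 3′ along its gene.
Abca1: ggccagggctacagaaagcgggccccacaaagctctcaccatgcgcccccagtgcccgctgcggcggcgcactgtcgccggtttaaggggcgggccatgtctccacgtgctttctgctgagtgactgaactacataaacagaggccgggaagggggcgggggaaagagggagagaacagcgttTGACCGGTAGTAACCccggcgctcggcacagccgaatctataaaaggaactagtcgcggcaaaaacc
Srebf1: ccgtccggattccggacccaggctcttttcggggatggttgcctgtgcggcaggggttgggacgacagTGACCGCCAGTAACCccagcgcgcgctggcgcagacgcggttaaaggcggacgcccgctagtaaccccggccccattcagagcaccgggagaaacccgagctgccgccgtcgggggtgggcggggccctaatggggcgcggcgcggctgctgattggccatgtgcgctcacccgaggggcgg
Fasn: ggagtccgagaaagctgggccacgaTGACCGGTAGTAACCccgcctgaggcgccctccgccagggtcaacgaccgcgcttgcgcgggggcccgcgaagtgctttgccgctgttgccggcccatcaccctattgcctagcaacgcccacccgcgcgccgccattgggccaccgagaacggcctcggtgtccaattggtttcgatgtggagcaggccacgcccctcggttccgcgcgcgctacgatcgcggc

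Among genes that were lower with DMHCA, the genes for MHC class II proteins share a promoter module whose Y-box reads TGATTGG. That motif was found, on either strand, in 7.23% of all windows. By gene, it was in 11.4% of tested genes, 14.6% of genes lower with DMHCA, 9 of 16 matched cholesterol synthesis genes and 5 of the 6 tested MHC class II genes that could be matched, which were H2-Aa, H2-DMb1, H2-DMb2, H2-Eb1 and H2-Oa. The window of H2-Aa, at chr17:34287824-34288073 on the minus strand, is shown because this gene is among the leading falls, with the Y-box in capitals.
H2-Aa: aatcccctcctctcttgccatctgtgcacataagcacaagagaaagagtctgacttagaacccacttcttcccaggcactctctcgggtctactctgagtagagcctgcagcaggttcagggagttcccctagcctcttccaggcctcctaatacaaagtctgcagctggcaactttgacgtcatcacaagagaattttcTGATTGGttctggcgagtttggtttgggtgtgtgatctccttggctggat

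At 72 h DMHCA was followed by many more falls than rises. A gene was called where the adjusted p (limma, Benjamini-Hochberg over all genes tested) was below 0.05 and the difference in log2(TPM + 1) was at least 2-fold, a scale that understates the change of low genes. By that rule 5.21% of the genes tested were called, with 70 higher with DMHCA (0.642%) and 498 lower (4.57%). With the adjusted p alone, 1123 genes were higher (10.3%) and 2533 lower (23.2%). All of these 70 and 498 genes had libraries that did not overlap between the groups, which also held for 54.8% of all genes tested. A fall of at least 4-fold was called for 75 genes, and a rise of that size for 23. Unnamed transcripts and small RNAs made up 25 of the 70 higher and 37 of the 498 lower genes and are not described further.

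**Figure D1:**
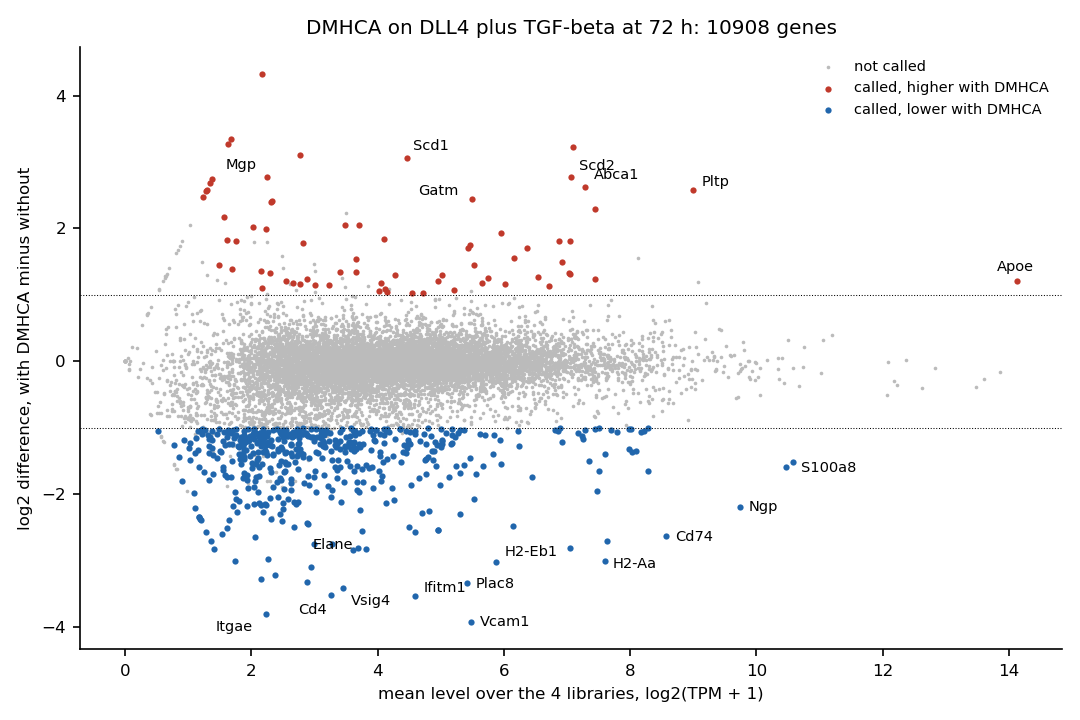
Difference of each of the 10908 tested genes (vertical axis, log2 with DMHCA minus without at 72 h) against its mean level in the 4 libraries (horizontal axis, log2(TPM + 1)), with dotted lines at 2-fold. The 498 called genes below the line outnumber the 70 above it, and abundant genes occur on both sides, Apoe and Pltp above, Cd74, Ngp and S100a8 below.

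Among the genes that LXR is known to switch on, transporters, lipoprotein genes and regulators rose, but not the whole list. Of 18 tested LXR targets 8 were called higher and none lower, against 0.642% of all genes called higher, and the median difference of the list was 0.74, against -0.06 over all genes tested. Abca1 (chr4:53030789-53159895, minus strand), which moves cholesterol onto apolipoprotein A-I, had 458 and 329 TPM with DMHCA and 59.6 and 64.4 TPM without, a log2 difference of 2.63 (SE 0.11, adjusted p = 3.7e-09, limma). Abcg1, which moves cholesterol onto larger lipoproteins, had 400.0 and 374 TPM with DMHCA and 77.1 and 78.4 TPM without, a difference of 2.30 (SE 0.05). Both libraries with DMHCA were several times above both libraries without it.

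Pltp, a plasma protein that transfers phospholipids between lipoproteins, reached 1233 and 1263 TPM with DMHCA, against 215 and 201 TPM without (log2 difference 2.58, SE 0.07). Apoe, the main apolipoprotein of macrophages, was already the most abundant of the LXR targets. It had 28546 and 26139 TPM with DMHCA and 11908 and 11719 TPM without (log2 difference 1.21, SE 0.06, adjusted p = 1.4e-08), so that it made up 5.59% and 5.04% of all deposited TPM with DMHCA and 2.22% and 2.2% without. Apoc2, its neighbour gene and the activator of lipoprotein lipase, had 231 and 207 TPM with DMHCA and 64.2 and 58.7 without. Mylip, a ubiquitin ligase that limits lipoprotein uptake, had 222 and 184 TPM with DMHCA and 71.3 and 71.2 without, and Arl4c, a small GTPase, 219 and 196 TPM with DMHCA and 81.1 and 82.7 TPM without. Across these genes the groups never overlapped, as for every called gene and for 54.8% of all genes tested.

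Not all targets were called. Lpl, which encodes lipoprotein lipase, had 994 and 906 TPM with DMHCA and 832 and 848 without (log2 difference 0.18), and Smpdl3a, a secreted phosphodiesterase, had a difference of 0.11 (adjusted p = 0.082). Neither was called. The receptors themselves were not called either. Nr1h3, for LXR-alpha, had 37.8 and 36.1 TPM with DMHCA and 42.6 and 41.5 without (log2 difference -0.18, SE 0.10, adjusted p = 0.18), and Nr1h2, for LXR-beta, had 73.9 and 87.1 TPM with DMHCA and 70.2 and 65.8 TPM without (difference 0.24, adjusted p = 0.031, under 2-fold).

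Fatty acid synthesis moved through a few genes rather than the whole pathway. Of 14 tested genes 4 were called higher, against 0.642% of all genes, and none lower, with a median difference of 0.02. Srebf1, the transcription factor that drives fatty acid synthesis and an LXR target itself, had 121 and 118 TPM with DMHCA and 29.2 and 32.2 without (log2 difference 1.93, SE 0.08). The 2 desaturases Scd1 and Scd2, which make monounsaturated from saturated fatty acids and both lie on chromosome 19, showed the largest rises among named genes. Scd1 had 68.7 and 57.3 TPM with DMHCA and 7.06 and 6.26 without, a difference of 3.06 (SE 0.13, adjusted p = 3.0e-09). Scd2, the more abundant of the pair, had 369 and 329.5 TPM with DMHCA and 47.6 and 52.3 without, a difference of 2.78 (SE 0.06). Fasn, fatty acid synthase, had 55.5 and 49.7 TPM with DMHCA and 24.3 and 24.8 without, a difference of 1.07 that came to 0.99 without replicate 1 of the cultures with DMHCA, just under the 2-fold limit. By contrast Acly and Fads1, an earlier and a later enzyme, had differences of -0.25 and -0.31 and were not called.

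Cholesterol synthesis went the other way. Of 23 tested genes of the pathway and other SREBP2 targets, 8 were called lower and none higher, against 4.57% of all genes called lower, and 20 were lower by the adjusted p alone, against 23.2%. The fall ran along the pathway. Hmgcs1, an early enzyme, had 21.9 and 26.5 TPM with DMHCA and 59.7 and 49.6 without, Sqle, which makes the epoxide that closes into the sterol rings, had 9.26 and 12.0 TPM with DMHCA and 31.4 and 29.0 TPM without, and Cyp51, which removes a methyl group from the ring, had 8.37 and 10.2 TPM with DMHCA and 24.6 and 26.0 TPM without. Srebf2 itself had a difference of -0.75, which passed the adjusted p but not the 2-fold limit. The highest difference of the list was that of Fdft1, which commits the pathway to sterols, with 138 and 132 TPM with DMHCA and 115 and 115 without (difference 0.23).

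**Figure D2:**
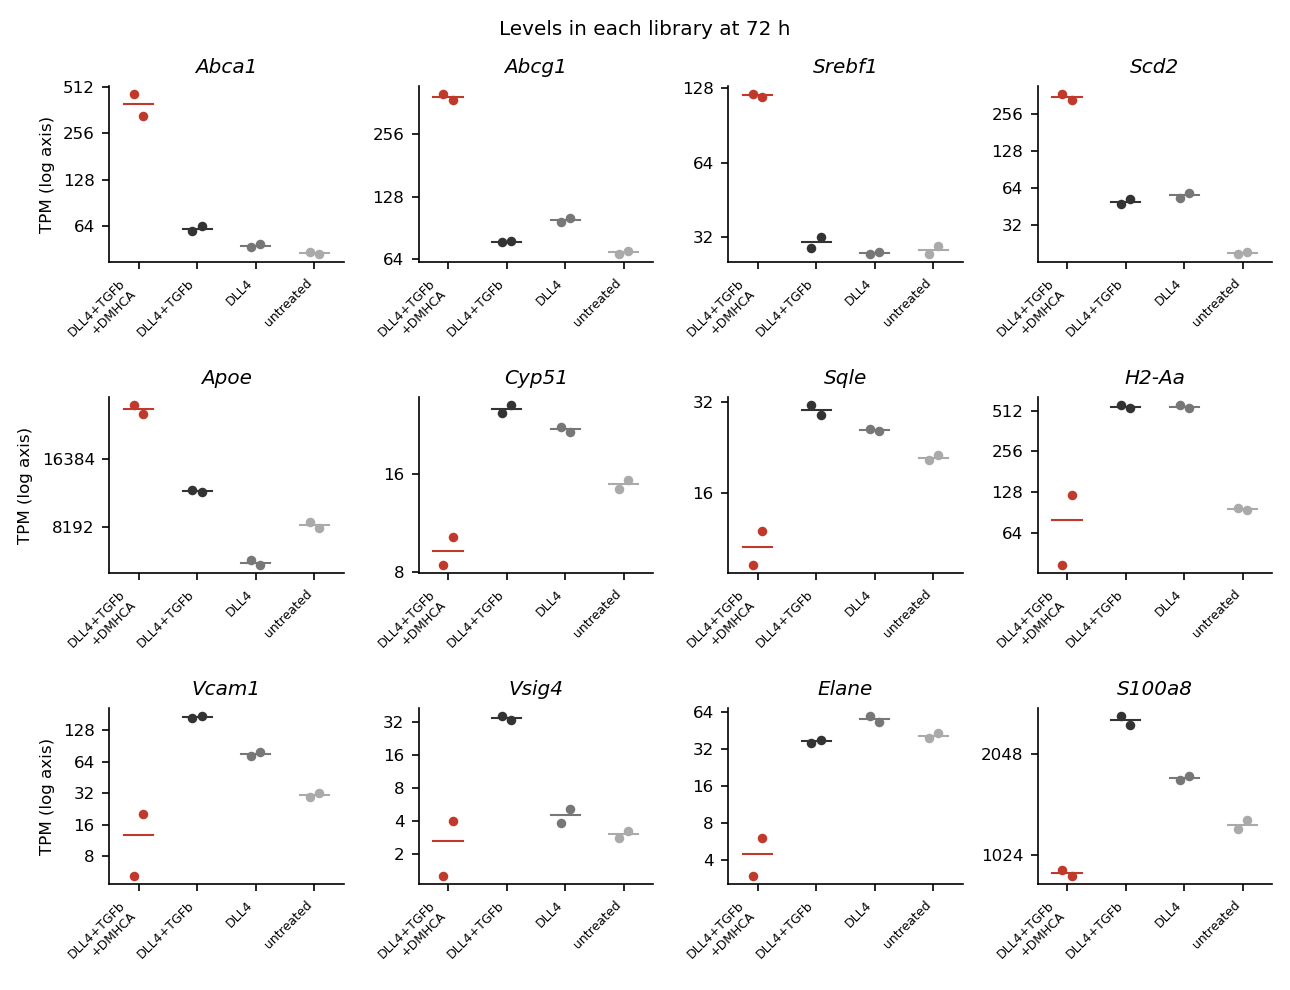
TPM on a log axis for 12 genes in the 8 libraries of 72 h, with 1 point per library and a line at the group mean. Abca1, Abcg1, Srebf1, Scd2 and Apoe are highest in the 2 libraries with DMHCA, and Cyp51, Sqle, Vcam1, Elane and S100a8 are lowest there. Vsig4 lies near its level in untreated cultures (2.78 and 3.25 TPM), and the H2-Aa values lie on both sides of the untreated ones (96.7 and 94.0 TPM).

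Outside the lipid lists, the leading rises were of varied function. Gatm, the first enzyme of creatine synthesis, had 110.1 and 99.3 TPM with DMHCA and 18.1 and 18.8 without (log2 difference 2.44, SE 0.06). Mgp, a matrix protein known to hold back calcification, had 11.2 and 11.6 TPM with DMHCA and 1.77 and 0.20 without, a difference of 2.77 (SE 0.51). The 2 libraries without DMHCA were low and unequal. Clec4e, the glycolipid receptor Mincle, had 28.2 and 23.4 TPM with DMHCA and 5.50 and 5.36 without, and Cd38, an enzyme that consumes NAD, 32.1 and 31.2 TPM with DMHCA and 8.63 and 7.57 TPM without. Rnf145, a ubiquitin ligase that acts on the rate-limiting enzyme of sterol synthesis, had 82.5 and 77.7 TPM with DMHCA and 21.8 and 24.2 without. Eepd1, reported to aid cholesterol efflux in macrophages, had 80.9 and 73.3 TPM with DMHCA and 21.8 and 24.0 TPM without, Rasgef1b, an exchange factor for small GTPases, 157 and 140.3 TPM with DMHCA and 45.6 and 44.2 TPM without, and Lbp, the lipopolysaccharide-binding protein, 11.3 and 13.0 TPM with DMHCA and 3.83 and 1.99 TPM without. For each of these 8 genes the lower library with DMHCA lay above the higher one without. The choice of leading genes required this separation, which also held for 54.8% of all genes tested.

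All 9 tested MHC class II genes were lower with DMHCA, with a median difference of -2.40, against 4.57% of all genes called lower. H2-Aa (chr17:34282751-34287771, minus strand), an alpha chain that presents peptides to CD4 T cells, had 36.8 and 122 TPM with DMHCA and 564 and 533 without, a log2 difference of -3.01 (SE 0.34, adjusted p = 1.7e-05, limma). H2-Eb1, a beta chain, had 10.8 and 35.2 TPM with DMHCA and 165 and 169.8 without (difference -3.03, SE 0.33), and H2-Ab1 29.7 and 80.5 TPM with DMHCA and 345 and 353 TPM without. Replicate 1 was lower than replicate 2 with DMHCA for each of these 3 genes, and both were below the libraries without DMHCA. The invariant chain Cd74, which guides class II molecules to the endosome, had 94.0 and 244 TPM with DMHCA and 968 and 931 without. Ciita, the coactivator that switches these genes on, had 0.48 and 2.99 TPM with DMHCA and 10.2 and 13.8 without (difference -2.40, adjusted p = 5.5e-05). Reads of H2-DMb1 and H2-DMb2, near-identical copies, could not be assigned surely. Without replicate 1 of the cultures with DMHCA, 7 of the 9 were still called.

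In a bulk sample fewer cells of a type and less RNA per cell cannot be told apart. Dendritic cells also carry class II proteins, and all 7 tested dendritic cell markers were lower with DMHCA, against 4.57% of all genes. They included Flt3, the growth factor receptor of dendritic cell precursors, with 0 and 0.37 TPM with DMHCA and 5.62 and 6.62 without, Ccr7, a receptor that leads them to lymph nodes, with 0.54 and 0.056 TPM with DMHCA and 7.74 and 5.08 TPM without, and Dpp4, a surface peptidase, with 0.29 and 0.45 TPM with DMHCA and 6.67 and 5.68 TPM without. The summed level of the 11 listed markers was 29.6 and 43.5 TPM with DMHCA and 123 and 117 TPM without, and none was at 0 in all 4 libraries, while Xcr1, Clec9a, Zbtb46 and Cd209a did not pass the filter. The count of 7 is not a fair match to 4.57%, because the filter could pass a marker for being high without DMHCA. Itgae, also on this list, reached 4 TPM only in the cultures without DMHCA at 72 h (16.5 and 16.5 TPM). The marker Fscn1 passed in both groups and was called lower, with 27.3 and 38.7 TPM with DMHCA and 72.0 and 69.8 TPM without. The part of dendritic cells in the fall of the class II genes was not tested.

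Genes that mark Kupffer cells were split. Of 18 tested 7 were called lower, against 4.57% of all genes, and none higher, with a median of -0.33. By the adjusted p alone 9 were lower and 5 higher, against 23.2% and 10.3% of all genes. Other settings that kept all 4 libraries called 5 to 7 lower and up to 2 higher. Vcam1 (chr3:116110020-116129688, minus strand), an adhesion protein, showed the largest fall of any gene tested, with 5.17 and 20.3 TPM with DMHCA and 170.3 and 176 without (log2 difference -3.92, SE 0.38, adjusted p = 4.6e-06). Vsig4, the complement receptor by which Kupffer cells take up bacteria, had 1.25 and 3.98 TPM with DMHCA and 36.1 and 33.4 without (difference -3.42, SE 0.29). Fcna, the soluble lectin ficolin A, had 4.35 and 3.40 TPM with DMHCA and 35.1 and 31.4 TPM without, and Spic, a transcription factor of iron-recycling macrophages, 4.89 and 6.80 TPM with DMHCA and 24.9 and 21.2 TPM without. Dnase1l3, a secreted DNase, had 5.26 and 25.7 TPM with DMHCA and 59.5 and 62.2 without, and its call was lost when only the 4 libraries were fitted (adjusted p = 0.095), as was that of Clec1b (adjusted p = 0.065), which was also lost without replicate 2 of the cultures with DMHCA. The most abundant members were not called. Slc40a1, the iron exporter ferroportin, had 305 and 321 TPM with DMHCA and 290.1 and 302 without (difference 0.08), Cd5l, a secreted scavenger protein, 158 and 172 TPM with DMHCA and 266 and 269 TPM without (-0.69), and Id3, a helix-loop-helix inhibitor, 177 and 173 TPM with DMHCA and 134 and 123 TPM without (0.44).

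Other leading falls were of varied function. Itgae, the integrin subunit CD103, had 0.062 and 0.47 TPM with DMHCA and 16.5 and 16.5 without (log2 difference -3.81, SE 0.19, adjusted p = 1.8e-08), Cd4 0.85 and 3.36 TPM with DMHCA and 31.1 and 32.4 TPM without, and Itgad, another integrin subunit, 1.45 and 1.83 TPM with DMHCA and 21.8 and 21.2 TPM without. The untreated 72 h cultures had 0.087 and 0.11 TPM of Itgae, 7.38 and 7.12 TPM of Cd4 and 2.69 and 2.90 TPM of Itgad. Ifitm1, an interferon-induced membrane protein, had 4.76 and 7.77 TPM with DMHCA and 86.7 and 76.1 without, and Cdh1, the epithelial cadherin, 0.21 and 0.68 TPM with DMHCA and 12.0 and 13.8 TPM without. Slco2b1, an organic anion transporter, had 1.02 and 1.71 TPM with DMHCA and 22.8 and 22.0 without, Mgll, a lipase of monoglycerides, 3.15 and 3.96 TPM with DMHCA and 32.7 and 30.7 TPM without, and Plet1, a surface protein whose reads overlap those of Plet1os and are uncertain, 0.19 and 1.45 TPM with DMHCA and 10.8 and 14.3 TPM without. In none of these 8 genes did the groups overlap, a separation that the choice of leading genes required and that 54.8% of all genes tested had. Tfrc, the transferrin receptor, with 15.1 and 21.9 TPM with DMHCA and 65.1 and 61.4 without, and Mrc1, the mannose receptor, with 8.33 and 14.1 TPM with DMHCA and 56.6 and 56.5 TPM without, fell as well. Acp5 and Ocstamp, genes of osteoclasts, were among the 4 of 7 tested osteoclast markers called lower, against 4.57% of all genes. Acp5 had 105 and 134 TPM with DMHCA and 319 and 311 without.

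Genes of neutrophils and their precursors were lower throughout, while 4.57% of all genes tested were called lower. All 12 tested neutrophil markers were called, with differences of -2.83 to -1.11 and a median of -1.65, and the same 12 of 12 were called under each other setting tried. S100a8, a subunit of the calcium-binding protein calprotectin, had 921 and 883 TPM with DMHCA and 2653 and 2499 without (log2 difference -1.51, SE 0.12). Ngp, a granule protein, had 386 and 409.8 TPM with DMHCA and 1795 and 1863 TPM without (-2.20), and Elane, neutrophil elastase, which is made in granulocyte precursors, 2.98 and 6.08 TPM with DMHCA and 35.5 and 37.8 TPM without (-2.83, SE 0.20). Summed over the 13 listed markers, none of which was at 0 in all 4 libraries, the level was 2604 and 2429.7 TPM with DMHCA and 8145 and 8107 TPM without.

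Monocyte genes followed, with 9 of 14 tested called lower and a median of -1.35. The counts in this paragraph are set against 4.57% of all genes called lower and 0.642% called higher. Plac8 had 9.27 and 16.4 TPM with DMHCA and 140.2 and 130.4 without (log2 difference -3.35, SE 0.17), Ccr2, the receptor that draws monocytes into tissue, 2.67 and 1.70 TPM with DMHCA and 11.3 and 10.8 TPM without, and Chil3, a secreted chitinase-like protein, 87.5 and 91.2 TPM with DMHCA and 335 and 363 TPM without. The summed level of the 15 markers was 542 and 526 TPM with DMHCA and 1210.0 and 1325 TPM without, with Ly6c1 at 0 in all 4. Of 6 tested platelet markers 4 were lower, a count that came to 2 without either library with DMHCA, without replicate 2 of the cultures without it, and with array weights. Pf4 had 169 and 155 TPM with DMHCA and 381 and 459.9 without, and the 7 listed markers summed to 223 and 205 TPM with DMHCA and 483 and 578 without. Stromal genes were present in these cultures, at a summed 907 and 953 TPM with DMHCA and 1398 and 1483 TPM without over 11 genes, and 1 of 8 tested was called lower, Acta2, smooth muscle actin (-1.02), which was not called without replicate 1 of the cultures with DMHCA or without replicate 2 of those without it. Erythroid, mast cell and most lymphocyte markers were below the filter. None of 9 erythroid markers passed it, 1 of 11 mast cell and basophil markers did and was not called, and of 2 tested lymphocyte markers Cd4 was called lower. The 12 macrophage identity genes summed to 13248 and 14319 TPM with DMHCA and 16749 and 16428 without, with Cd14, the lipopolysaccharide co-receptor, called higher and Itgam, the integrin subunit CD11b, called lower. Such a sum weighs the abundant genes most, and the median difference of the 12 was 0.14. By the adjusted p alone 5 were higher and 2 lower, against 10.3% and 23.2% of all genes. Whether the proportions of these cells changed was not tested.

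**Figure D3:**
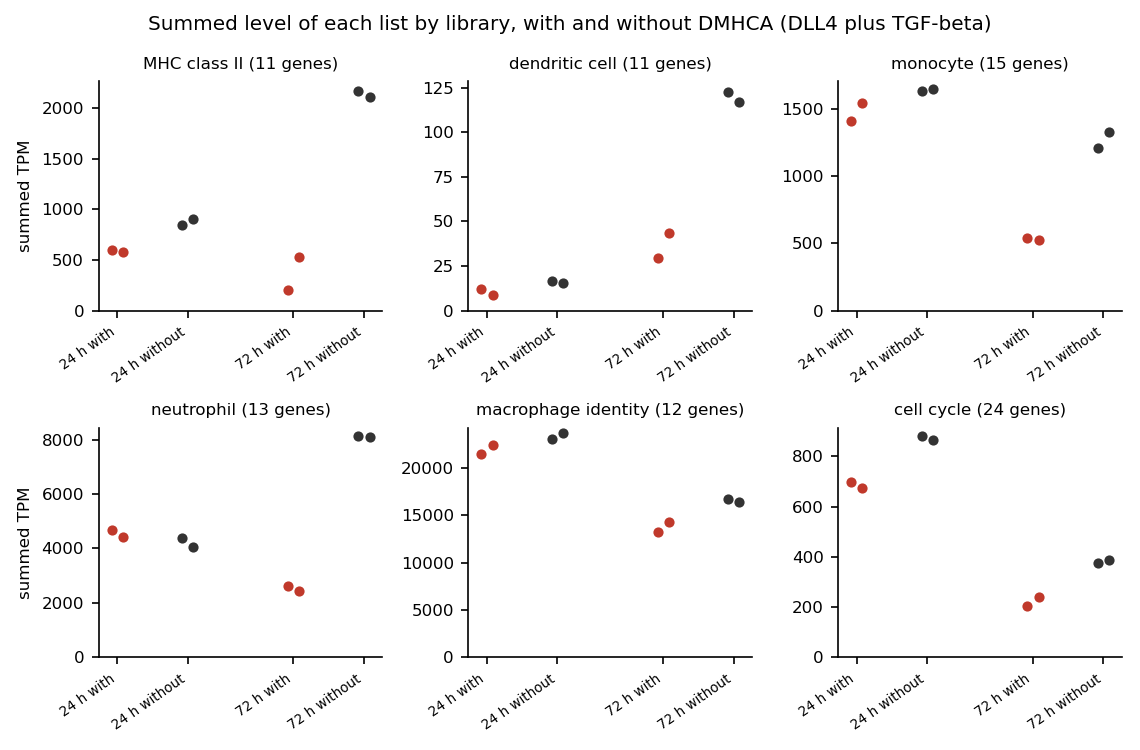
Summed TPM of 6 gene lists in the 8 libraries with DLL4 plus TGF-beta, 1 point per library, in red with DMHCA and in dark grey without. At 72 h the sums of all 6 lists lie lower with DMHCA without overlap, macrophage identity by the smallest share. The median member of the macrophage identity list was not lower (log2 difference 0.14). The neutrophil sums of 24 h are 4667 and 4412 TPM with DMHCA and 4369.5 and 4065 TPM without.

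Proliferation genes were lower too. Of 24 cell cycle genes 11 were called lower, against 4.57% of all genes, and 23 were lower by the adjusted p alone, against 23.2%, with a median of -0.98. Mki67, a marker of dividing cells, had 4.72 and 5.58 TPM with DMHCA and 15.6 and 19.5 without (log2 difference -1.59, SE 0.11), Top2a, which untangles DNA, 6.58 and 8.96 TPM with DMHCA and 24.7 and 25.7 TPM without, and Plk1, a mitotic kinase, 2.36 and 2.62 TPM with DMHCA and 9.54 and 8.86 TPM without. Pcna, the clamp of DNA replication, was the exception, with 77.2 and 88.4 TPM with DMHCA and 83.2 and 87.1 without. With a pseudocount of 0.25, and with limma-voom on recovered reads, the count was 17, and without replicate 1 of the cultures with DMHCA it was 8. Interferon-response genes had 7 of 16 called lower and a median of -0.92, but the count came to 2 after quantile normalization to 4 when only the 4 libraries were fitted, and to 10 with a pseudocount of 0.25 or limma-voom. Ifit2, an antiviral protein, had 0.66 and 0.65 TPM with DMHCA and 3.59 and 5.40 without, and Oasl2, related to the interferon-induced oligoadenylate synthetases, 2.08 and 2.45 TPM with DMHCA and 9.63 and 8.94 TPM without.

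Few direct targets of the 2 signals that all 4 cultures received were called at 2-fold, and those few were lower. With 0.642% of all genes called higher, the lack of a higher member in lists of this size says little. Of 18 listed Notch targets only 9 passed the filter and were tested. Of these 1 was called lower, against 4.57% of all genes. By the adjusted p alone 5 were lower and none higher, against 23.2% and 10.3%. The called gene was Nrarp, a feedback inhibitor of Notch, with 1.75 and 3.11 TPM with DMHCA and 9.47 and 11.6 without (log2 difference -1.77). Hes1, the classic Notch target, had 22.7 and 28.3 TPM with DMHCA and 29.7 and 28.7 without, and Notch1 34.4 and 31.5 TPM with DMHCA and 51.8 and 53.0 TPM without, a difference of -0.66 under the 2-fold limit. Of 21 tested TGF-beta targets 2 were called lower, Itgae and Gpr34, against 4.57% of all genes, and the median was 0.07. By the adjusted p alone 7 of the 21 were higher and 7 lower, against 10.3% and 23.2% of all genes. The call of Gpr34 was lost without replicate 1 of the cultures with DMHCA (difference -0.77) and when only the 4 libraries were fitted (adjusted p = 0.098). Id2, a helix-loop-helix inhibitor, had 468 and 442 TPM with DMHCA and 353 and 353 TPM without (0.36).

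Yet many genes that DLL4 raised on its own were lower with DMHCA. DLL4 alone and untreated cultures of 72 h share no library with the comparison. Of all genes tested, 4.57% were lower with DMHCA and 0.642% higher. Of the 143 genes that were higher with DLL4 alone (1.31% of those tested), 68 (47.6%) were lower with DMHCA, which is 13.7% of the 498, and 4 were higher. Of the 46 that were lower with DLL4 alone (0.422%), 5 (10.9%) were lower with DMHCA and 6 higher. The median difference with DMHCA was -0.92 over the 143 genes and -0.07 over the 46. These sets were formed after the data were seen. DLL4 plus TGF-beta against untreated cultures at 24 h, again with no shared library, raised 595 genes (5.45%), of which 128 (21.5%, or 25.7% of the 498) were lower with DMHCA at 72 h and 13 higher. Of the 465 genes it lowered (4.26%), 59 (12.7%) were lower with DMHCA and 11 (2.37%) higher. Both sets of lowered genes thus also had larger called shares in each direction than all genes tested.

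Counts for other lists of macrophage function are set against 4.57% of all genes called lower and 0.642% called higher, and some lie near that background, such as 1 of 20 lysosomal genes. Alternative activation genes had 4 of 8 called lower, among them Ccl22, a chemokine for regulatory T cells, with 0.39 and 0 TPM with DMHCA and 8.77 and 8.17 TPM without. Scavenger receptor genes had 3 of 15 called lower, and 5 without replicate 2 of the cultures with DMHCA. Lipid-associated macrophage genes had 3 of 15 lower, lipid droplet and PPAR genes 3 of 12, iron handling genes 2 of 14, and complement genes 2 of 10 lower and 1 higher. The higher one was Cfp, for properdin, with 197 and 217 TPM with DMHCA and 83.3 and 81.4 TPM without. Of 14 glycolysis genes 1 was called higher, Ndrg1, a hypoxia-induced gene (1.21). None of 14 NRF2 genes was called by limma, although 8 were lower and 2 higher by the adjusted p alone, against 23.2% and 10.3% of all genes. Hmox1, heme oxygenase, had 827 and 962 TPM with DMHCA and 1291 and 1250.0 without (-0.51). The called lysosomal gene was Atp6v0d2, a proton pump subunit, with 95.8 and 107 TPM with DMHCA and 223 and 218 without. Of 19 genes of the unfolded protein and amino acid stress responses 1 was called higher, Sdf2l1, a chaperone partner, with 141 and 145 TPM with DMHCA and 63.0 and 54.7 without, and 12 were higher by the adjusted p alone, against 10.3% of all genes. The chaperone Hspa5 was one of them, with 834 and 759.6 TPM with DMHCA and 430.3 and 439 without (0.87, adjusted p = 3.2e-08). Plin2, the coat of lipid droplets, had 641 and 638 TPM with DMHCA and 646 and 617 without (0.02). Fabp4, a fatty acid carrier under PPAR-gamma, was lower, with 17.0 and 26.8 TPM with DMHCA and 85.7 and 102 TPM without. Inflammatory genes moved both ways, with Ptgs2, the inducible cyclooxygenase, at 17.4 and 17.6 TPM with DMHCA and 44.4 and 48.4 without and Cxcl10, a chemokine, at 1.62 and 0.81 TPM with DMHCA and 11.3 and 9.46 TPM without, both called lower, while Acod1, which makes itaconate, was called higher with a difference of 1.06. That call was lost without replicate 1 of the cultures with DMHCA, without replicate 2 of those without (difference 0.68), with array weights and when only the 4 libraries were fitted.

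**Figure D4:**
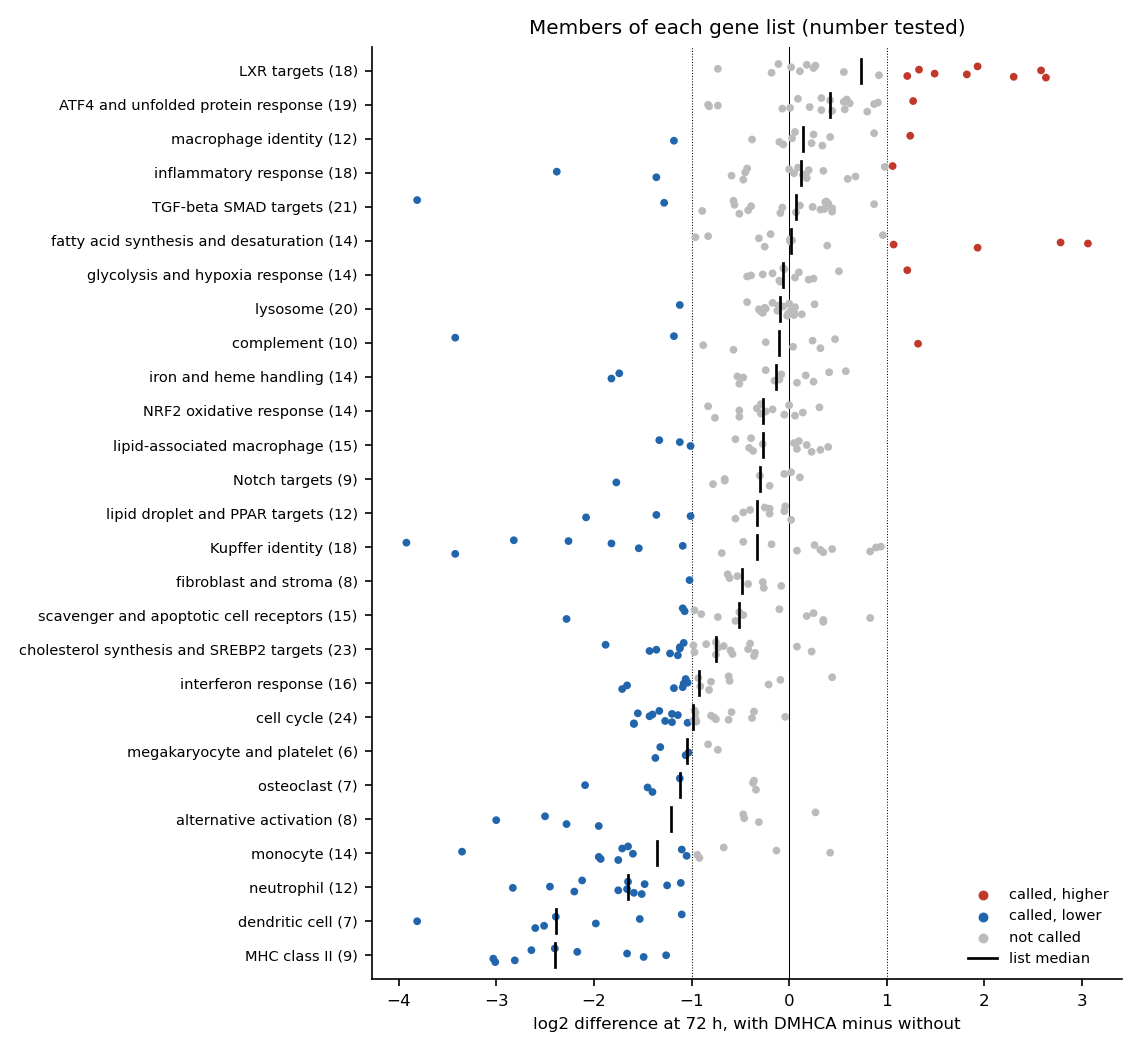
Log2 difference at 72 h, with DMHCA minus without, of each tested member (points) of the lists with at least 5 tested members, with the median as a bar, the number tested in brackets and dotted lines at 2-fold. All points of the MHC class II, dendritic cell and neutrophil lists lie left of the lower line, and the called LXR targets and desaturases lie right of the upper one.

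The same addition of DMHCA was also measured at 24 h, in 4 other libraries with 4 days of culture. There 134 genes were called (1.23%), 48 higher (0.44%) and 86 lower (0.788%). At 24 h 8 of the 18 LXR targets were higher and 8 of the 23 cholesterol synthesis genes lower, but the members were not all those of 72 h. Lpl and Apoc1 were called at 24 h and not at 72 h, and Apoe and Apoc2 at 72 h and not at 24 h. Lpl had 1336 and 1388 TPM with DMHCA and 432 and 439 TPM without at 24 h, a log2 difference of 1.64, and the change between the times was called (72 h minus 24 h -1.47, adjusted p = 1.4e-07, limma). Abca1 had 347 and 325 TPM with DMHCA and 33.2 and 30.5 without at 24 h, a log2 difference of 3.36, and Scd1 had 26.2 and 22.4 TPM with DMHCA and 0.81 and 0.45 TPM without (3.96). The change between the times was -0.73 for Abca1 (adjusted p = 0.0071, limma) and -0.9 for Scd1 (adjusted p = 0.0045). Both passed the adjusted p but not the 2-fold limit, so neither was called. Of the 48 genes higher at 24 h, 26 (54.2%) were higher at 72 h, which is 37.1% of the 70, and of the 86 lower at 24 h, 47 (54.7%) were lower at 72 h, which is 9.44% of the 498. Across the 10908 genes, which are not independent, the 2 sets of differences had a Pearson r of 0.40.

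The falls in class II, neutrophil, monocyte and most Kupffer genes were not called at 24 h. The test of the 72 h difference minus the 24 h difference called 378 genes (3.47%), 34 with a more positive difference at 72 h (0.312%) and 344 with a more negative one (3.15%), and 245 of the 498 lower genes were among the 344. By list it called 7 of 9 class II genes, 11 of 12 neutrophil genes, 8 of 14 monocyte genes and 7 of 18 Kupffer genes as more negative. It called 1 Kupffer gene as more positive, Cd207, for langerin, and 2 Kupffer genes, Dmpk and Il18bp, were called higher at 24 h. It called none of the 23 cholesterol synthesis genes in either direction. H2-Aa had 105 and 104 TPM with DMHCA and 158 and 172 without at 24 h, Vcam1 2.56 and 4.19 TPM with DMHCA and 3.83 and 4.08 TPM without, and S100a8 1479 and 1510.2 TPM with DMHCA and 1423 and 1326 TPM without. Vcam1 was low at 24 h in both groups, which left little room for a fall at that time. The same held for Vsig4, with 0.576 and 0.086 TPM with DMHCA and 0.367 and 0.485 TPM without. Spic was also low, with 0.145 and 0.682 TPM with DMHCA and 0.97 and 1.177 TPM without. Cd5l was not, with 63.0 and 70.1 TPM with DMHCA and 37.5 and 37.9 TPM without. Dnase1l3, by contrast, was called lower already at 24 h, with 15.5 and 11.5 TPM with DMHCA and 107 and 107 without at 24 h (difference -2.92).

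**Figure D5:**
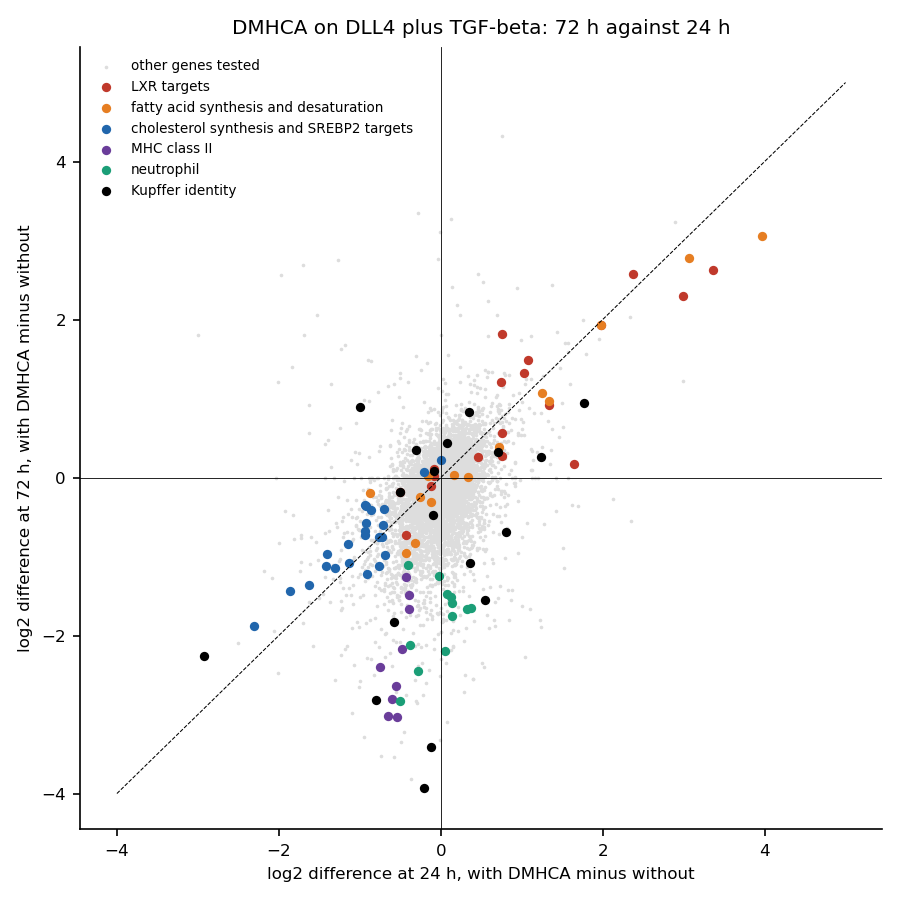
Log2 difference with DMHCA minus without at 72 h (vertical) against that at 24 h (horizontal) for 10908 genes, with 6 lists coloured and a dashed line of equality. The called fatty acid and cholesterol genes lie near the line except Scd1, which lies below it at 3.06 for 72 h and 3.96 for 24 h. Among the LXR targets Lpl lies below the line and Apoc2 above it. The class II genes lie between -0.76 and -0.39 at 24 h and further down at 72 h.

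DMHCA alone for 24 h, against untreated cultures of 24 h, called 592 genes (5.43%), 285 higher (2.61%) and 307 lower (2.81%), or 309 higher of 841 with limma-voom on recovered reads. This comparison shares no library with that at 72 h either. It raised Abca1 to 112 and 119.9 TPM, against 4.04 and 3.67 TPM in untreated cultures, and Scd2 to 321 and 313 TPM, against 15.2 and 14.4 TPM. Of 9 class II genes 5 were called higher with DMHCA alone, and H2-Aa had 105 and 100.0 TPM with DMHCA alone and 29.6 and 30.8 TPM untreated. Of 16 interferon genes 9 were called higher. Neutrophil genes were lower, with 12 of 12 called and a median of -3.02, Elane having 2.86 and 4.17 TPM with DMHCA alone and 43.0 and 40.5 TPM untreated. None of the 23 cholesterol synthesis genes was called by limma, and their median difference was -0.08. The difference between this comparison and that at 72 h was not tested.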

How the data were processed

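RNA was measured by poly(A)-selected, strand-marked RNA-seq, per the labels' protocols. The deposited values are TPM, the transcript share scaled for length, with 1 isoform kept per gene. The submitters' processing notes name mm10, STAR and HOMER. Values of up to 20 reads came out as whole reads in 100% of cases, within 0.1, and the recovered reads came to 7830287 to 18633441 per library, so that genes with few reads are less precise. No column lacked a sample.

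One limma 3.58.1 model (R 4.3.3) with a mean for each of the 9 groups was fitted to log2(TPM + 1), with a variance trend. Genes with at least 4 TPM in at least 2 libraries were tested. A call is an adjusted p under 0.05 (Benjamini-Hochberg) with at least 2-fold. Standard errors are the moderated ones. The method was tested on simulated data. The 30 gene lists and the members were chosen with earlier results of these data known, and lists are described by counts and medians. Named genes were, in each direction, the 15 called with the greatest change whose higher group averaged 10 TPM or more and whose groups were separate, unnamed transcripts and small RNAs passed over, up to 6 called and 4 abundant uncalled members of each list, up to 6 genes with the largest change between times, and Nr1h3 and Nr1h2. Some genes are not reported here. Apoe, Apoc1, Arl4c, S100a8, Cd207, Dmpk, the uncalled defining markers and the H2-DMb genes fall outside that rule and were chosen after their values were seen. Alternatives fixed beforehand were a pseudocount of 0.25, no filter, quantile normalization, a replicate block, only the compared groups, leaving out each library, no fold minimum and a test against 1.2-fold. Added after the data were seen were limma-voom on recovered reads, array weights, only the 72 h libraries, a crossed block and the sets from other comparisons. Tables were handled in Python 3.11.15 with pandas 2.3.3.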

Additional observations from a re-analysis of the deposited data

Results flagged for a closer look

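The difference between cultures with and without DMHCA changed between 72 h and 24 h for 378 genes, by a direct test of that change (limma, adjusted p below 0.05 and at least 2-fold). The values below are the log2 difference at 72 h minus that at 24 h. Among the leading genes the change was positive for Mgp at 2.81, Clec4e at 1.82, Gatm at 1.07 and Apoc2 at 1.06. It was negative at -3.72 for Vcam1, -3.44 for Itgae, -3.29 for Vsig4, -3.17 for Itgad, -2.78 for Cd4, -2.33 for Cdh1, -2.01 for Fcna and -1.88 for Plet1. Slco2b1 and Mgll had -3.31 and -2.55. Ifitm1 had -2.95, and the class II genes H2-Eb1 and H2-Aa had -2.49 and -2.36. Plac8, a monocyte gene, had -2.86, and Elane, a gene of granulocyte precursors, had -2.33. Some of these genes were near 0 at 24 h in both groups, so that a fall could hardly appear there. Itgae had 0.311 and 0.417 TPM with DMHCA and 0.981 and 0.569 TPM without at 24 h. Vsig4 had 0.576 and 0.086 TPM with DMHCA and 0.367 and 0.485 TPM without. Time and age of the culture cannot be told apart here.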

How the results depend on the processing

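For the 72 h comparison, 1331 genes were called with a test against 1.2-fold in place of the 2-fold limit, and 3656 with no fold minimum. The other settings gave 491 to 747, and leaving out 1 library gave 549 to 644. After quantile normalization, which moved the median of all genes from -0.06 to 0.04, 111 of 499 called genes were higher. Leaving out 1 library gave 112 to 146 genes at 24 h, 338 to 448 for the change between times and 96 to 123 called list members. The 30 leading genes kept their call in all 390 checks. Over the 193 named genes and 2509 checks, 2441 kept their side of the threshold, 55 lost the call, 13 gained it and none reversed. The differences between replicates correlated at -0.10 between the 72 h groups and -0.01 at 24 h. These values show no strong effect shared by replicate number, but cannot tell if the numbers pair the libraries. With the replicate block 70 genes were higher at 72 h, and 134 were called at 24 h and 379 for the change between times, and with crossed numbers 570 at 72 h. The edgeR and DESeq2 alternatives were not run, because the deposited unit is TPM, and limma-voom on recovered reads gave 745 genes. With 2 libraries a group, the wider spread of the libraries with DMHCA (array weight 0.296 each, against 0.632 for those without) limits precision. This holds not only for genes with few reads, since Cd74 had 94.0 and 244 TPM in the 2 libraries with DMHCA. The model pools the spread of each gene over all 9 groups, so its standard errors do not reflect this group alone.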
